A study of Rattus norvegicus with 8 samples.

Results

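Integrins are cell surface receptors made of 1 alpha and 1 beta subunit, and 10 of the genes that encode these subunits were followed in rat nucleus pulposus (NP) cells after knockdown of Sirt6, which encodes a nuclear deacylase. The subunits were listed by name, but with earlier results of these data known: Itga1, Itga2, Itga3, Itga5, Itga6, Itgav, Itgb1, Itgb3, Itgb4 and Itgb5. Their calls are therefore not those of an unselected set. All 10 passed the filter on low counts and were among the 13250 genes tested. The cells were primary cells of the soft disc centre of adult Sprague Dawley rats. The Sirt6-KD group (n = 4, libraries S5 to S8) had received lentiviruses with an equal mixture of 3 ShSirt6 clones, so the effect of a single clone cannot be told apart from that of another. The Sirt6-Ctrl group (n = 4, libraries S1 to S4) had received a lentivirus with ShCtrl. Both groups were therefore transduced cells selected with puromycin, and no untransduced cells were included. RNA was taken from independent experiments, and the series record speaks of cells from 4 rats. In such bulk samples, fewer cells of a type and less RNA per cell cannot be told apart.

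Each alpha and beta pair binds its own set of matrix proteins. Itgb1 encodes the beta1 subunit, which pairs with many alpha subunits: alpha1 and alpha2 form collagen receptors with it, alpha3 and alpha6 laminin receptors, and alpha5 the main fibronectin receptor. The alphav subunit pairs with beta1, beta3 or beta5 and binds proteins that carry an Arg-Gly-Asp (RGD) motif, such as vitronectin and fibronectin, whereas beta4 pairs with alpha6 alone in the hemidesmosomes of epithelia. In the disc, integrins tie NP cells to their pericellular matrix and to laminins, and through talin and other linkers to the actin cytoskeleton.

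Total counts were 31994838 to 40124813 per library and showed no difference between groups beyond their spread (exact permutation, two-sided, p = 0.257). Sirt6 itself (ENSRNOG00000006393) had 1755 to 1964 counts in S1 to S4 and 695 to 753 counts in S5 to S8. This corresponded to 52.7 ± 3.78 and 20.6 ± 1.07 CPM (counts scaled to a common library size, with SD, n = 4 each), a log2 fold change of -1.35 (SE 0.13, adjusted p = 0.000713), in the direction of the labels. The artificial ERCC RNAs spiked into each sample took 2.97% to 9.80% of the counts of S1 to S4 and 2.15% to 2.47% of those of S5 to S8 (two-sided exact permutation, p = 0.0286, which is as small as 4 against 4 can give). They were highest in S1 (6.27%) and S2 (9.80%). When libraries were scaled by their spike-ins, all genes had a median log2 fold change of 0.94, against -0.02 in the TMM normalization used throughout. Sirt6 was then at -0.36 (adjusted p = 0.567), or -1.31 relative to the median. Markers of blood and vessel cells were low or had no row in the table of names: the summed level was 11.9 to 29.7 CPM in S1 to S4 and 15.0 to 23.8 CPM in S5 to S8 for the 3 of 9 macrophage markers with a row, and at most 0.592 CPM in any library for the 1 of 7 endothelial markers. Of 15 NP markers 10 had a row (summed level 204 to 296 CPM in S1 to S4, 238 to 271 CPM in S5 to S8). T, Krt18, Krt19, Shh and Noto were not among them. Of the 10 with a row, 4 had a positive and 6 a negative log2 fold change. Krt8 and Car3 alone were called, both lower in Sirt6-KD. The 7 annulus and fibroblast markers with a row summed to 14528 to 27479 CPM in S1 to S4, against 8671 to 18518 CPM in S5 to S8. Most of this was Col1a1, at 13286 to 25213 CPM and 7961 to 17465 CPM. Col3a1 and Scx of this list were called lower and none higher. The 5 smooth muscle markers summed to 352 to 2620 CPM and 873 to 2154 CPM, with none called. The 5 of 8 chondrocyte markers with a row summed to 623 to 1213 CPM and 530 to 1220 CPM, with Col9a1 called higher and none lower. Most of this was Col11a1, at 601 to 1192 CPM and 508 to 1201 CPM. Col9a1 was at most 0.917 CPM in any library. The part of such cells in the integrin values was not tested.

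The promoters of 4 of the 5 called subunits are shown: Itga3, Itga2 and Itgav were higher and Itgb5 lower in Sirt6-KD in the normalization used throughout. That of the other called subunit, Itga1, is not printed. Of its bases, 53 lie inside the gene's own annotated span, as do all 250 of the Itga3 stretch. Each is the stretch of 250 bases before the start used for its promoter in the RefSeq table for the GRCr8 assembly. It is written 5′ to 3′ on the gene's strand. For Itga3 that start lies inside the annotated span of the gene, so its stretch is not upstream of the whole gene. The counts were made on another assembly (Rnor_6.0), and the promoters were matched by symbol. Capitals mark every match, on either strand, to the letters searched for: TGANTCA (AP-1 site), GGAATG (TEAD site), GGGCGG (GC box), ACGTG (hypoxia response element), CCAAT and TATAAA.

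Itga3, chr10:80518902-80519151, minus strand: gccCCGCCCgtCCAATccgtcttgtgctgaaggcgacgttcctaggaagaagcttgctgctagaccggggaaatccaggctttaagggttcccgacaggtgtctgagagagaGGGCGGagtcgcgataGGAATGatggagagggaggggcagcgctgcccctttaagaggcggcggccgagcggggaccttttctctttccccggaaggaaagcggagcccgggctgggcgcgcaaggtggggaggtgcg
Itga2, chr2:48354510-48354759, minus strand: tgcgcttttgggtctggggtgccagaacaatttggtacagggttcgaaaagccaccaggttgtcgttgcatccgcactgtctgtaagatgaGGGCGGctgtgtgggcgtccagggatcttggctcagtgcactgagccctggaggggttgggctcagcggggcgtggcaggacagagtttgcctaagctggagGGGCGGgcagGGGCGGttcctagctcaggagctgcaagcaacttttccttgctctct
Itgav, chr3:89245132-89245381, plus strand: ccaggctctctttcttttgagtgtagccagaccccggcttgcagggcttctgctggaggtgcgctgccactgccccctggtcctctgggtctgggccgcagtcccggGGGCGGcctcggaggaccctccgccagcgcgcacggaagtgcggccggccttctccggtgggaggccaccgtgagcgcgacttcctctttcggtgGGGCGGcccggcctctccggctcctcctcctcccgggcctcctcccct
Itgb5, chr11:80449374-80449623, minus strand: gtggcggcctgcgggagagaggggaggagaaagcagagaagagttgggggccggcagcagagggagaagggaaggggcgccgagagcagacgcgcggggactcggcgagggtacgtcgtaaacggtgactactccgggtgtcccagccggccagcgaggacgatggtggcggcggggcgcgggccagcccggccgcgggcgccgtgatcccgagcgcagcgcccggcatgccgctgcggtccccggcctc

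All 4 stretches were rich in G and C (64.0% for Itga3, 60.0% for Itga2, 72.0% for Itgav and 74.4% for Itgb5), against a median of 51.2% over the 33469 promoters of the table. The Itga3 stretch, which lies within the annotated span of that gene, held 2 GC boxes, 1 CCAAT box and 1 TEAD site. The TEAD site lay 122 bases before the start used for that promoter. The Itga2 stretch held 3 GC boxes and that of Itgav 2, and that of Itgb5 held none of the 6 motifs. The motifs did not separate the subunits by direction or call: the stretch of Itga1, which was higher, held none either, and those of Itgb1 and Itga5, which were not called, held 4 GC boxes with 1 TEAD site and 1 GC box. Of all promoters, 30.5% held a GC box, 34.0% a CCAAT box and 12.1% a TEAD site. No AP-1 site (6.34% of all promoters), hypoxia response element (16.6%) or TATA box (12.9%) lay in the 4 stretches. The matches are a description of these letters and not of any binding.

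Of the 10 subunits, 4 were called higher in Sirt6-KD (Itga1, Itga2, Itga3 and Itgav), 1 was called lower (Itgb5) and 5 were not called (Itga5, Itga6, Itgb1, Itgb3 and Itgb4). A call required an adjusted p below 0.05 in edgeR's quasi-likelihood test over all genes and a fold change above 1.5. Over all genes tested, 8.02% were called higher and 10.7% lower. The median log2 fold change of the 10 subunits was 1.09 and that of all genes -0.02. With the spike-in scaling only Itga3 remained called, where 0.151% of all genes were called higher and 0.0302% lower, and the log2 fold changes of Itga1 (1.89, adjusted p = 0.0898), Itga2 (3.68, adjusted p = 0.0814) and Itgav (1.96, adjusted p = 0.0885) were positive but did not pass. Relative to the median of all genes under that scaling, these 3 were at 0.94, 2.74 and 1.02. Without S1 and S2, 3 subunits were called higher (Itga2, Itga3 and Itgav) and 1 lower (Itgb5), where 5.71% of all genes were called higher and 5% lower. When 1 library was left out, only Itga3 was called higher without S1, S5, S6, S7 or S8, and 5 subunits were, Itgb3 among them, without S3. The calls over all genes moved the same way. Of all genes, 1063 were called higher with all libraries and 1699 without S3. Without S1, S5, S6, S7 and S8, 552, 491, 445, 477 and 736 were.

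**Figure D1:**
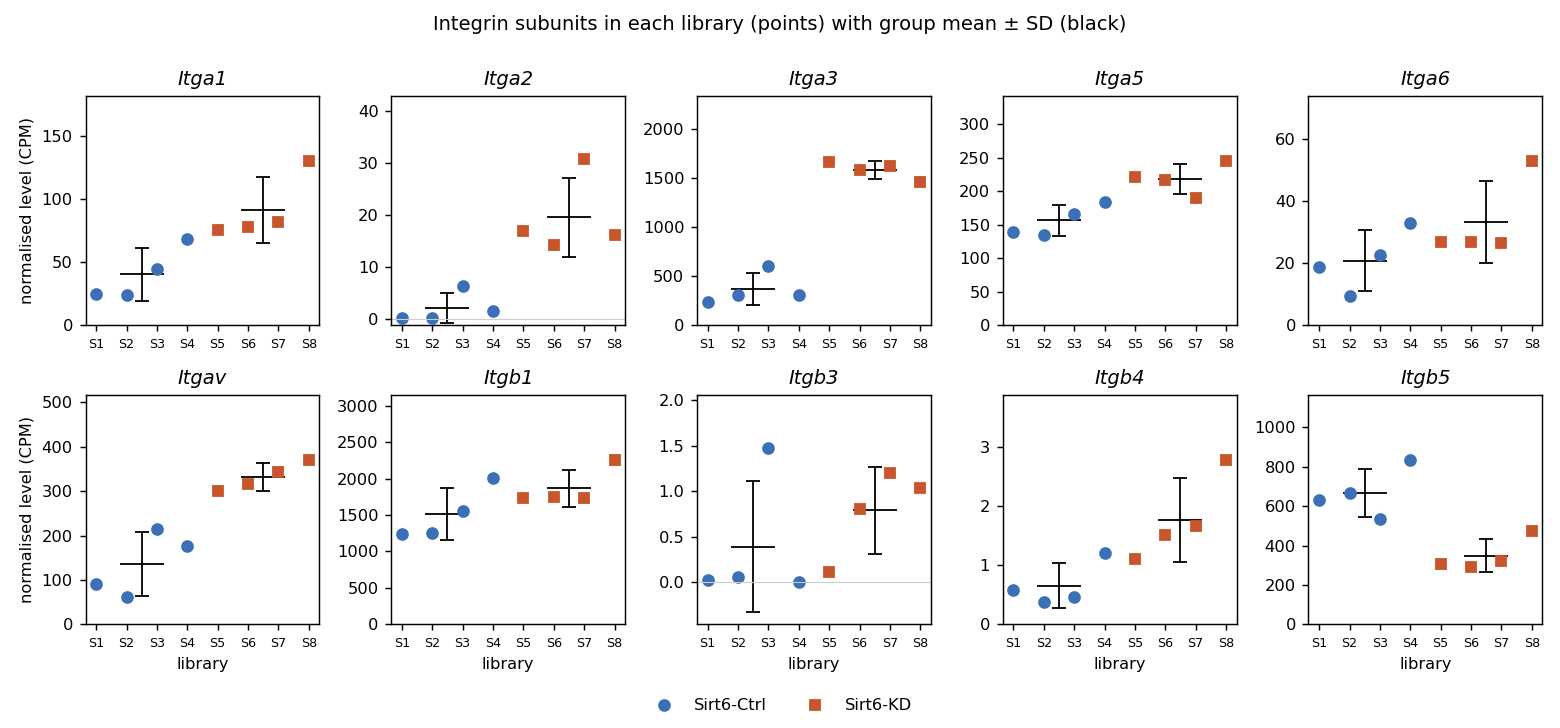
Level of each of the 10 integrin subunits in TMM-normalized CPM (vertical axis, linear, extended below 0 where an SD reaches there) in the 8 libraries (horizontal axis). Points are libraries, and the black marks are the mean ± SD of the 4 libraries of a group. For Itga3 the Sirt6-KD libraries lie at 1456 CPM or above and the Sirt6-Ctrl libraries at 604 CPM or below, and for Itgb1 the groups overlap.

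Among the laminin receptor subunits, Itga3 stood out by its level and its test. Itga3 (ENSRNOG00000004276), which encodes the alpha3 partner of beta1, was at 235, 308, 604 and 312 CPM in S1 to S4 and at 1666, 1580, 1619 and 1456 CPM in S5 to S8. All Sirt6-KD libraries were above the highest Sirt6-Ctrl library, S3, and they lay within a coefficient of variation of 5.70%, against 44.8% in Sirt6-Ctrl. The mean rose from 365 ± 163 to 1580 ± 90.1 CPM (SD, n = 4 each), 4.33-fold, with a log2 fold change of 2.12 (SE 0.27, adjusted p = 0.00214). It was the integrin subunit with the smallest p, and its call held in all 8 fits that left out 1 library (log2 fold change 1.98 to 2.47, adjusted p 5.8e-05 to 0.0122). Without S1 and S2 the log2 fold change was 1.80 (adjusted p = 0.00541). Under spike-in scaling it was 2.91 (adjusted p = 0.0467), or 1.97 above the median of all genes.

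Itga6 (ENSRNOG00000001518), the alpha6 subunit that pairs with beta1 or beta4, was at 18.6, 9.28, 22.5 and 32.8 CPM in S1 to S4 and at 26.8, 26.9, 26.4 and 52.9 CPM in S5 to S8. The groups overlapped, since S4 lay above 3 of the Sirt6-KD libraries. The means were 20.8 ± 9.72 and 33.3 ± 13.1 CPM, with a log2 fold change of 0.68 that did not pass the test (SE 0.36, adjusted p = 0.208). Its partner Itgb4 (ENSRNOG00000005580) had 12 to 50 counts in Sirt6-Ctrl and 38 to 94 in Sirt6-KD. This amounted to 0.575, 0.371, 0.471 and 1.21 CPM in S1 to S4 and to 1.10, 1.52, 1.67 and 2.78 CPM in S5 to S8. Only the highest Sirt6-Ctrl library, S4, reached into the range of the Sirt6-KD libraries, and the log2 fold change of 1.42 had a wide error (SE 0.67, adjusted p = 0.151). At this depth no difference in Itgb4 was established, and 3 counts corresponded to 0.0727 to 0.0928 CPM. Of 7 keratinocyte and simple epithelium markers 1 had a row, at 0 to 2.97 CPM in S1 to S4 and 0.299 to 1.79 CPM in S5 to S8.

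Both collagen receptor subunits were higher in Sirt6-KD, Itga2 from a very low level. Itga1 (ENSRNOG00000053550) was at 25.0, 23.9, 44.2 and 68.6 CPM in S1 to S4 and at 75.5, 77.6, 81.7 and 130 CPM in S5 to S8. The groups did not overlap, although S4 lay close to the lowest Sirt6-KD library. The mean rose from 40.4 ± 21.0 to 91.2 ± 26.0 CPM, 2.26-fold, with a log2 fold change of 1.17 (SE 0.33, adjusted p = 0.0313). The call was lost in 6 of the 8 fits without 1 library, namely without S1 (1.02, adjusted p = 0.0876), S2 (1.002, 0.0536), S5 (1.25, 0.0595), S6 (1.24, 0.0637), S7 (1.22, 0.0652) or S8 (0.98, 0.0900). It was also lost without both S1 and S2 (0.70, adjusted p = 0.108).

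Itga2 (ENSRNOG00000058111), the alpha2 subunit, had 5, 8, 218 and 67 counts in S1 to S4 and 586, 475, 1175 and 547 counts in S5 to S8. These were 0.144, 0.247, 6.42 and 1.62 CPM against 17.0, 14.2, 30.6 and 16.2 CPM. S1 and S2 had almost no Itga2 reads, S3 had the most in Sirt6-Ctrl, and the lowest Sirt6-KD library was above all of them. The mean rose from 2.11 ± 2.95 to 19.5 ± 7.52 CPM, 9.25-fold. Its log2 fold change of 3.21 was the largest in size of the 10, with the widest error of the called ones (SE 0.94, adjusted p = 0.0343). The call was kept without S1 and S2 together (2.29, adjusted p = 0.0302) and lost without S1 (2.83, adjusted p = 0.0626), S4 (3.10, 0.0667), S5 (3.27, 0.0716), S6 (3.33, 0.0693), S7 (2.90, 0.0945) or S8 (3.30, 0.0643).

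Of the RGD receptor subunits, Itgav was higher and its partner Itgb5 lower in Sirt6-KD, the latter in the TMM normalization but not under spike-in scaling. Itgav (ENSRNOG00000004912), which encodes alphav, was at 91.0, 62.4, 215 and 176 CPM in S1 to S4 and at 299, 315, 343 and 369 CPM in S5 to S8. The groups did not overlap, and S1 and S2 were the lowest libraries. The mean rose from 136 ± 71.4 to 332 ± 30.9 CPM, 2.44-fold, with a log2 fold change of 1.28 (SE 0.33, adjusted p = 0.0217). Without S1 and S2 together the value was 0.77 and still called (adjusted p = 0.0125), whereas the call was lost without S1 (1.15, adjusted p = 0.0702), S5 (1.33, 0.0508), S6 (1.31, 0.0564), S7 (1.27, 0.0583) or S8 (1.26, 0.0555).

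Itgb5 (ENSRNOG00000001795), a beta partner of alphav, was at 634, 667, 536 and 833 CPM in S1 to S4 and at 305, 293, 319 and 473 CPM in S5 to S8. All Sirt6-KD libraries were below the lowest Sirt6-Ctrl library. The means were 667 ± 124 and 347 ± 84.2 CPM, 0.521-fold, with a log2 fold change of -0.94 (SE 0.19, adjusted p = 0.0102). It was the one member with a negative value, and the call held in all 8 fits without 1 library (-1.09 to -0.82, adjusted p 0.00397 to 0.0443). Under spike-in scaling the sign turned, to 0.01 (adjusted p = 0.987), or -0.93 against the median over all genes. A change of Itgb5 per cell therefore cannot be told apart from a difference in total RNA between the groups.

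Itga5 (ENSRNOG00000057451), the alpha5 subunit of the fibronectin receptor, was at 140, 135, 167 and 184 CPM in S1 to S4 and at 222, 216, 190 and 245 CPM in S5 to S8. The groups did not overlap, but the margin between S4 and S7 was narrow. The means were 156 ± 23.3 and 218 ± 22.6 CPM, and the log2 fold change of 0.48 passed the adjusted p (SE 0.14, adjusted p = 0.0355) but not the fold threshold. With Itga5, the groups of 5 members were fully apart upwards and those of 1 downwards, where 14.8% and 15.6% of all genes were. Itgb3 (ENSRNOG00000048449), the other beta partner of alphav followed here, had 1, 2, 50 and 0 counts in S1 to S4 and 4, 27, 46 and 35 counts in S5 to S8. The single Sirt6-Ctrl library with reads in number, S3, was above every Sirt6-KD library in CPM (1.47 against at most 1.20), and the 0 in S4 allowed a level of up to 0.0727 CPM. The log2 fold change of 1.01 did not pass the test (SE 1.42, adjusted p = 0.649), and without S3 it was 4.60 and called (adjusted p = 0.0346), so that 1 library decided this value.

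Itgb1 (ENSRNOG00000010966), the common beta1 partner, was at 1236, 1255, 1556 and 2004 CPM in S1 to S4 and at 1734, 1742, 1736 and 2252 CPM in S5 to S8. The groups overlapped, with S4 above 3 of the Sirt6-KD libraries. The means were 1513 ± 359 and 1866 ± 257 CPM, and the log2 fold change of 0.30 did not pass the test (SE 0.19, adjusted p = 0.271). Itgb1 took 49.4% to 55.5% of the counts of the 10 subunits in Sirt6-Ctrl and 39.9% to 45.1% in Sirt6-KD. The summed level of the 10 was 2380, 2462, 3153 and 3614 CPM in S1 to S4 and 4347, 4267, 4348 and 4998 CPM in S5 to S8, so the groups were apart in the sum. Both the sum and the share of Itgb1 include Itga3, whose mean alone rose from 365 to 1580 CPM. They do not show a rise common to the subunits.

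**Figure D2:**
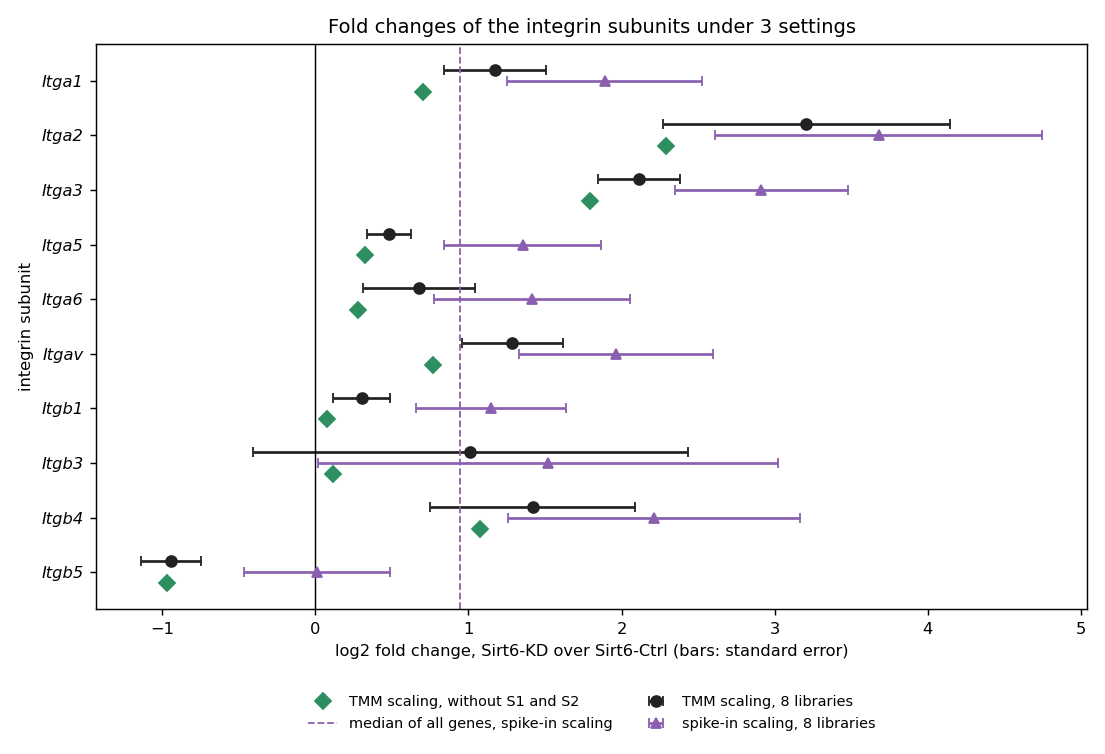
Fold change in Sirt6-KD against Sirt6-Ctrl on the log2 scale (horizontal axis) for each integrin subunit (vertical axis) in TMM normalization, under spike-in scaling and without S1 and S2, with bars for the standard error of the settings with 8 libraries and a dashed line at the median of all genes under spike-in scaling. Itga3 lies right of 1.79 in all 3 settings, and Itgb5 lies left of 0 in TMM and without S1 and S2 and at 0.01 under spike-in scaling.

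Ratios of subunits within a library do not depend on how the libraries are scaled, and they were taken to compare each alpha subunit with its partner. They are log2 ratios of counts with 0.5 added, not divided by gene length, so a change between groups can be read from them but not which of a pair had more molecules. The ratio of Itga3 to Itgb1 was -2.40, -2.03, -1.37 and -2.68 in S1 to S4 and -0.06, -0.14, -0.10 and -0.63 in S5 to S8. For each 100 Itgb1 counts there were thus 15.6 to 38.8 Itga3 counts in Sirt6-Ctrl and 64.6 to 96.1 in Sirt6-KD. The groups were fully apart, and the mean ratio was 3.70-fold higher in Sirt6-KD.

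Itga1, Itga2 and Itgav also moved against Itgb1. The mean log2 ratio was higher in Sirt6-KD by 0.95 for Itga1, by 4.19 for Itga2 and by 1.13 for Itgav, and in each case the groups were apart. For Itga5 (0.16) and Itga6 (0.42) the difference was small and the groups overlapped. The largest of these differences, that of Itga2, was widened by the 5 and 8 counts of S1 and S2. Its log2 ratio was -12.9 and -12.2 in these, -7.92 and -10.3 in S3 and S4, and -7.12 to -5.82 in S5 to S8.

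The balance between Itgb5 and Itgav shifted most among the pairs measured with many counts. The log2 ratio of Itgb5 to Itgav was 2.80, 3.42, 1.32 and 2.24 in S1 to S4 and 0.03, -0.11, -0.11 and 0.36 in S5 to S8. For each 100 Itgav counts there were 249 to 1069 Itgb5 counts in Sirt6-Ctrl and 92.8 to 128 in Sirt6-KD. The mean difference was -2.40, a ratio of 0.189, and the groups were apart with S3 the nearest Sirt6-Ctrl library. The ratios of Itgb3 to Itgav (1.34) and of Itga6 to Itgb4 (-0.73) differed on average, but the groups overlapped.

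**Figure D3:**
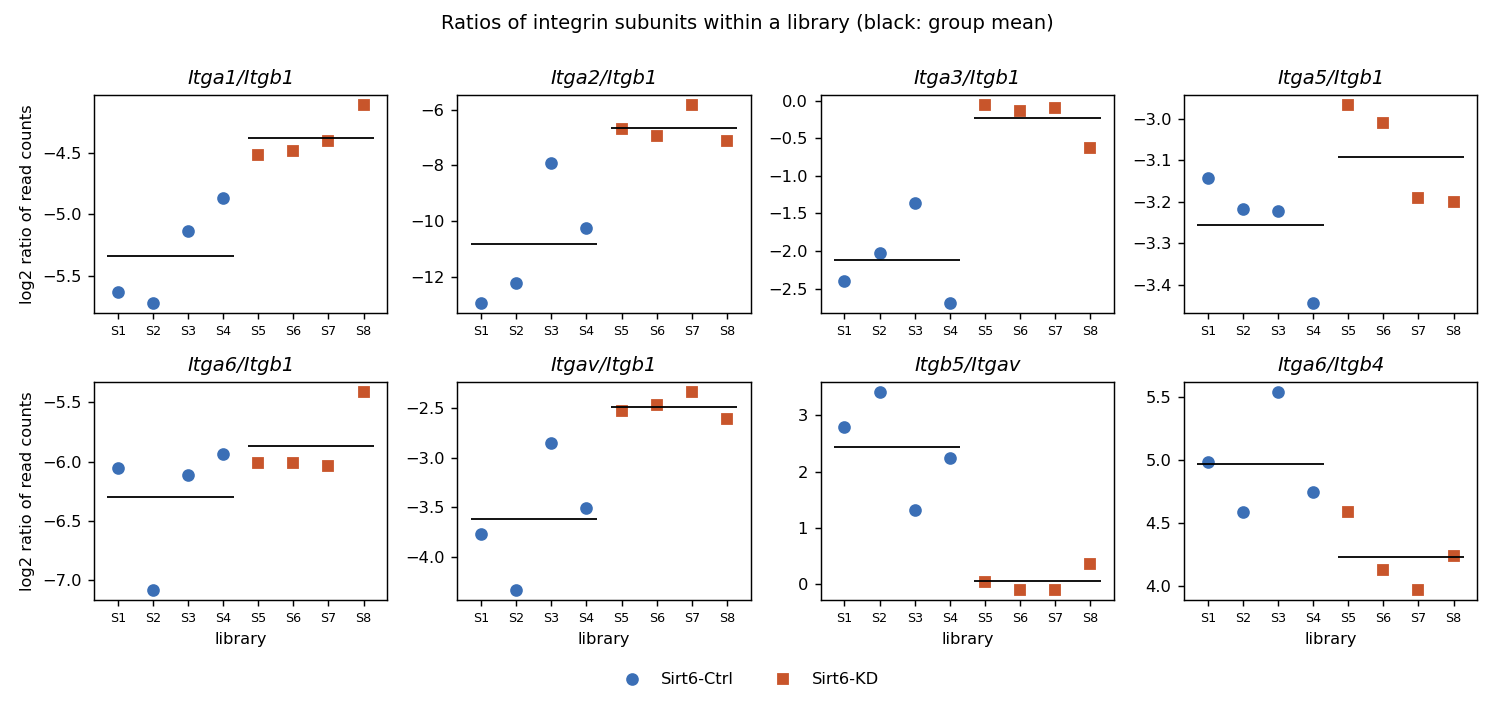
Log2 ratio of counts within a library (vertical axis) for each pair of subunits in the 8 libraries (horizontal axis), with a black line at each group's mean. For Itga3 to Itgb1 the Sirt6-KD libraries lie at -0.63 or above and the Sirt6-Ctrl libraries at -1.37 or below, and for Itgb5 to Itgav the Sirt6-KD libraries lie at 0.36 or below and the Sirt6-Ctrl libraries at 1.32 or above.

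The patterns of the members over the 8 libraries were compared by the root mean square difference of their centred log2 CPM, where a smaller value is a closer pattern. Since the values were centred but not scaled, genes that vary little lie close to one another by construction. Itga5 and Itgb1, whose log2 fold changes were 0.48 and 0.30, were the closest pair of members (0.136), followed by Itga1 and Itgb4 (0.314). The nearest member to Itga3 was Itgav, at 0.548. Among all genes tested, Fmn1 (0.117), which encodes a formin that nucleates actin, Dock5 (0.151), an exchange factor for Rac, and Clcn5 (0.165), an endosomal chloride and proton exchanger, were nearest to Itga3. Their log2 fold changes were 1.99, 1.83 and 2.28, near the 2.12 of Itga3, a likeness that the measure selects for. For Itga2, whose low counts make any pattern noisy, the nearest were LOC680227 (0.570), Usp31 (0.570) and AABR07042514.3 (0.712).

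With all 8 libraries, no other integrin subunit was called by edgeR in either direction. Of all genes tested, 8.02% were called higher and 10.7% lower, so 0 calls among few subunits is near these shares. Of 16 further subunits 9 had a row and 8 were tested, with a median log2 fold change of -0.08. Itga11, an alpha subunit of a collagen receptor with beta1, was at 79.5, 59.0, 76.4 and 158 CPM in S1 to S4 and at 60.1, 61.5, 41.1 and 70.7 CPM in S5 to S8, which overlap (log2 fold change -0.68, SE 0.29, adjusted p = 0.118). It was the 1 further subunit with an unadjusted p below 0.05 by edgeR, and DESeq2 and limma-voom also called 0 of the further subunits. Itga7, a laminin receptor subunit, had nearly the same mean in both groups (78.4 ± 17.3 and 72.4 ± 8.51 CPM, log2 fold change -0.12, adjusted p = 0.661). Itga8, which binds nephronectin, spread from 3.53 to 43.9 CPM over S1 to S4 and from 5.04 to 28.4 CPM over S5 to S8. Itga2b, Itga4, Itgae, Itgax and Itgb8 stayed below 10 CPM in every library, and Itga10 had at most 51 counts in a library and was not tested. Under spike-in scaling Itga11 was at 0.095 and Itga7 at 0.78, or at -0.85 and -0.17 against that scaling's median. Without S1 and S2, Itga11 was called lower (-0.997, adjusted p = 0.0494) and Itgax higher (1.26, adjusted p = 0.0331). In that fit 5.71% of all genes were called higher and 5% lower. Itga9, Itgad, Itgal, Itgam, Itgb2, Itgb6 and Itgb7 had no row in the table of names and were not analysed here.

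In the list of laminins, ligands of alpha3beta1 and alpha6beta1, 4 of 9 tested genes were higher and none lower. The list also held Npnt, which encodes nephronectin and not a laminin (log2 fold change 0.06, not called). Among all genes tested, 8.02% were called higher and 10.7% lower. The median log2 fold change of this list, with Npnt, was 0.94. Lama5, the alpha5 chain of laminins, was at 74.3, 70.4, 80.9 and 44.1 CPM in S1 to S4 and at 260, 256, 187 and 205 CPM in S5 to S8. The groups were far apart, with a log2 fold change of 1.75 (SE 0.20, adjusted p = 0.00143). Lamc1, the gamma1 chain common to most laminins, rose by 1.41 (adjusted p = 0.0187) and Lamb1, the beta1 chain, by 0.94 (adjusted p = 0.0156) on the log2 scale. Nid1, which links laminin to collagen IV in basement membranes, rose by 0.98 (adjusted p = 0.0220). Under spike-in scaling 1 laminin gene was called, and 2 were called without S1, S5 or S6 and 1 without S7.

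Other matrix ligands did not share one direction. Of 11 collagen genes tested 1 was higher and 1 lower, near the shares over all genes (8.02% and 10.7%). Col3a1, a fibrillar collagen, was at 1034, 877, 850 and 1515 CPM in S1 to S4 and at 343, 332, 331 and 641 CPM in S5 to S8, with a log2 fold change of -1.38 (adjusted p = 0.00812). Col9a1 had at most 2 counts in a Sirt6-Ctrl library and 13 to 31 in a Sirt6-KD library, so its change was between very low levels, and its call was lost without S5, S6, S7 or S8 and without S1 and S2. Of the 15 RGD and other ligands tested 1 was higher, Nid1, and 3 were lower. Postn, which encodes the matricellular protein periostin, fell by 1.23 (adjusted p = 0.00129), Nov by 0.79 (adjusted p = 0.0194) and Edil3, an RGD protein that binds alphav integrins, by 1.34 (adjusted p = 0.0201) on the log2 scale. Nov was at 0.16 under spike-in scaling, or -0.78 relative to the median of all genes. The call of Nid1 was lost without S1, S5, S6, S7 or S8 and without S1 and S2, where 0 of this list were higher, and 3 were higher without S4. Only 1 gene of the list was lower without S5 or S6. Fn1, the fibronectin gene, was higher in all Sirt6-KD libraries than in any Sirt6-Ctrl library but was not called (log2 fold change 0.50, adjusted p = 0.0641).

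All 15 tested genes for integrin activators and linkers to actin had a positive log2 fold change, as did 6511 of all 13250 genes tested. Of the 15, 8 were called higher and none lower (median 0.59), where 8.02% and 10.7% of all genes were. Tln2, a talin that binds the tails of beta subunits, was at 47.0, 23.9, 107 and 79.0 CPM in S1 to S4 and at 186, 188, 187 and 192 CPM in S5 to S8 (log2 fold change 1.55, adjusted p = 0.0156). Parvb, a parvin that binds integrin-linked kinase, rose by 1.002 (adjusted p = 0.00491) and Actn1, an actin crosslinker, by 0.86 (adjusted p = 0.0218). Without S1 and S2, 4 of the 15 were called, and under spike-in scaling 0. When 1 library was left out, 1 was called without S1, 2 without S5, S6 or S8, 3 without S7 and 5 without S4. Of the 9 inactivators tested 3 were higher and 1 lower: Slk rose by 1.14 (adjusted p = 0.0134), Flna, which encodes filamin A and competes with talin, by 0.98 (adjusted p = 0.0178) and Kank2 by 0.68 (adjusted p = 0.0329), and Sharpin fell by 0.68 (adjusted p = 0.0446). Sharpin was at 0.47 under spike-in scaling, or -0.48 relative to the median of all genes. Without S1, 0 inactivators were called in either direction, and without S6 1 was higher. The call of Sharpin was also lost without S2, S5, S6, S7 or S8 and by limma-voom. Of the 15 adhesion signalling genes tested 3 were higher and none lower, namely Bcar1 (0.78, adjusted p = 0.00498), which encodes the scaffold p130Cas, Tgfb1i1 (1.30, adjusted p = 0.00765), which encodes the paxillin relative Hic-5, and Zyx (0.67, adjusted p = 0.0150). Without S4, 5 of this list were higher and 1 lower, and without S3 1 was lower.

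Of the 13 membrane partners tested 4 were higher and 1 lower. Cd82, a tetraspanin, was at 96.0, 111, 132 and 128 CPM in S1 to S4 and at 204, 204, 210 and 207 CPM in S5 to S8 (log2 fold change 0.82, adjusted p = 0.00413). Plaur, the urokinase receptor, rose by 1.05 (adjusted p = 0.00416) and Cd44, a hyaluronan receptor, by 0.62 (adjusted p = 0.0136). Cd9, another tetraspanin, fell by 0.63 (adjusted p = 0.0247) and was at 0.38 under spike-in scaling, or -0.56 relative to the median of all genes. The call of Cd9 was lost without S1, S2, S5 or S6, 2 partners were lower without S3, and 2 in place of 4 were higher without S6 or S7. Of the 4 hemidesmosome partners tested, Dst was higher (1.18, adjusted p = 0.00766), and of 10 integrin trafficking genes 4 were higher and none lower, among them the endocytic adaptors Dab2 (1.38, adjusted p = 0.0178) and Numb (0.93, adjusted p = 0.0219), and Mical1 (0.67, adjusted p = 0.0200). The 4 trafficking calls fell to 0 without S1, to 1 without S5, S6 or S7, and to 2 without S8 or without S1 and S2. Over all these lists 29 of 109 genes tested were called higher and 6 lower (26.6% and 5.50%, where all genes gave 8.02% and 10.7%), with a median log2 fold change of 0.26. Without S1 and S2, 19 were called higher. When 1 library was left out, 11 to 30 were called higher, fewest without S1, and 2 to 8 lower. Under spike-in scaling 1 was called higher and none lower.

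**Figure D4:**
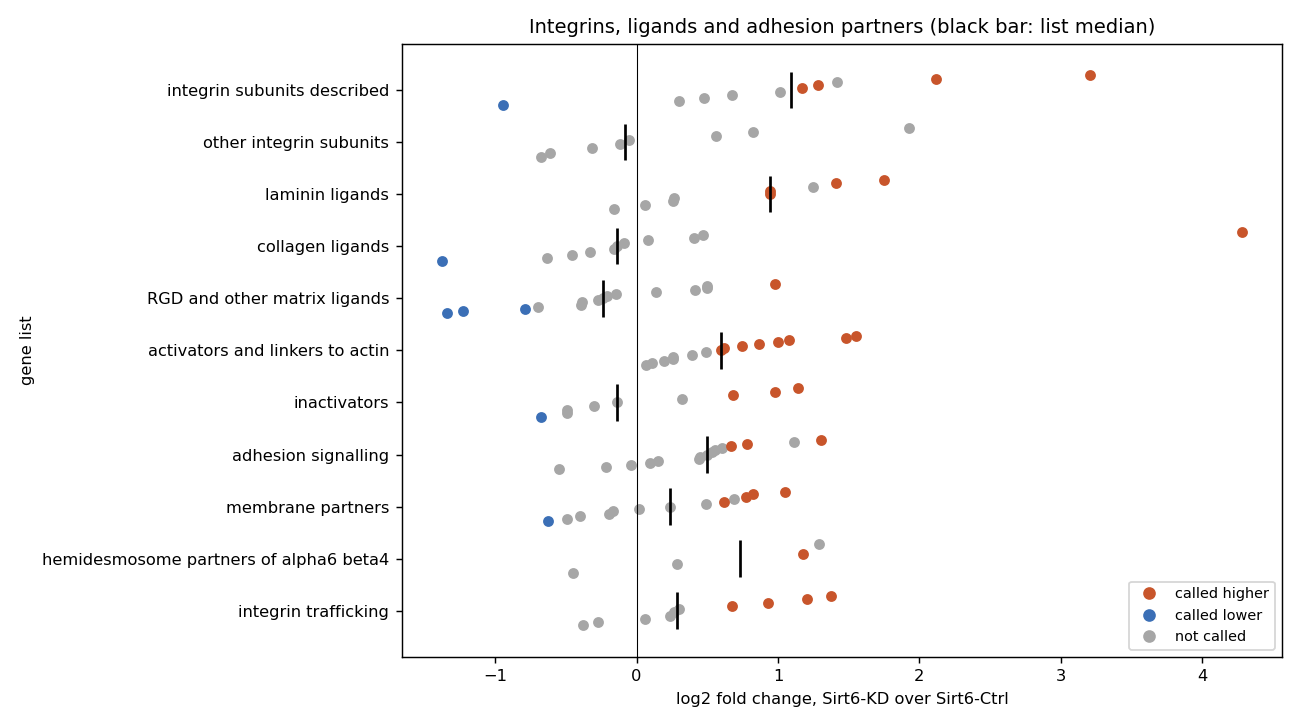
Fold change in Sirt6-KD against Sirt6-Ctrl on the log2 scale (horizontal axis) for each tested gene of the integrin subunits and of 10 lists of other integrins, ligands and partners (vertical axis) in TMM normalization. Points are genes, coloured by call, and the black bar is the median of a list. It was 1.09 for the 10 subunits, 0.94 for the laminin list (with Npnt), 0.59 for activators and linkers and -0.08 for the other integrin subunits.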

How the data were processed

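RNA of 4 Sirt6-Ctrl and 4 Sirt6-KD cultures of rat NP cells had been sequenced. The authors deposited unnormalized read counts for 32975 rows, namely Ensembl genes and 92 ERCC spike-ins. The submitters' processing notes name Trimmomatic 0.36, STAR 2.5.2b, featureCounts, Subread 1.5.2, DESeq2 and Rnor_6.0, and whether reads were counted by strand is not given in the sources used here, so reads of a gene and its antisense partner cannot be told apart. A second table, of the 13612 rows with a summed count above 80, gave the gene names. Its log2 fold changes and p-values, plain and adjusted, were made by the authors in their own comparison and were not used. Its signal columns, which the authors made by dividing each library's counts by a size factor, were not used either.

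Groups were taken from the sample labels. Rows with low counts were removed by filterByExpr of edgeR 4.0.16 (R 4.3.3), which left 13313 rows, 63 of them spike-ins. After TMM normalization the groups were compared with edgeR's quasi-likelihood test, two-sided and unpaired, with Benjamini-Hochberg adjustment over all rows. The SE is the log2 fold change divided by the square root of the F statistic. Where a symbol had several rows, the one with the highest total count was used. Levels are TMM-normalized CPM. The p-values measure the spread between these cultures. No pair of libraries agreed within sampling noise, so each counted as 1 sample. The lowest correlation of log2 CPM was 0.889 in Sirt6-Ctrl and 0.966 in Sirt6-KD. The 3-count floors cover counting error only, since the reads carry no molecular identifiers and are not independent.

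The integrin subunits and the other gene lists were chosen with earlier results of these data known. Named were all 10 subunits, all further subunits with a row, up to 3 called genes of each direction per list by smallest p, and the 3 genes nearest in pattern to the called subunit with the smallest p and to that with the largest fold change. Fn1 was named after its values were seen. Settings tried instead were other normalizations, filters, tests (DESeq2 1.42.0, limma-voom 3.58.1) and thresholds, and libraries left out. The scripts were tested on simulated data. Composition was planned per kilobase, but no transcript lengths were at hand, so ratios of counts were used. Promoters were read from the RefSeq table of GRCr8, which matched 7 of the 10 subunits (not Itga6, Itgb3 and Itgb4). Other data of the study were not analysed here.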

Additional observations from a re-analysis of the deposited data

Results flagged for a closer look

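Of the 20 sets of 4 libraries examined (10 subunits in each group), 6 held a library whose gap to its nearest neighbour, as a share of the set's whole range, exceeded Dixon's critical value for 4 values, where chance gives about 1. In Sirt6-KD, S8 was the highest library and stood apart for Itga1 (0.887), Itga6 (0.979), Itgb1 (0.985) and Itgb5 (0.855). These 4 flags belong to 1 library. For the same 4 subunits S4 was the highest Sirt6-Ctrl library, without a flag (68.6, 32.8, 2004 and 833 CPM). S8 was at 130 CPM for Itga1 where the other Sirt6-KD libraries were at 75.5 to 81.7 CPM, at 52.9 CPM for Itga6 where they were at 26.4 to 26.9 CPM, at 2252 CPM for Itgb1 where they were at 1734 to 1742 CPM, and at 473 CPM for Itgb5 where they were at 293 to 319 CPM. S7 was the highest Sirt6-KD library for Itga2 (0.831), at 30.6 CPM where the others were at 14.2 to 17.0 CPM. In Sirt6-Ctrl, S3 was the highest library for Itgb3 (0.958), with 50 counts where the others had 0 to 2.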

How the results depend on the processing

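Scaling by spike-ins changed most: 20 genes were then called higher and 4 lower, against 1063 and 1416 with TMM. Of the integrin subunits 1 was called higher (Itga3) and 0 lower, and of the other lists 1 higher and 0 lower. Sirt6 was at -0.36, and Itgb5 turned from -0.94 to 0.01 (0.011). By its construction this scaling changes all genes of a library by 1 factor, set by its spike-in counts. The factors differ between libraries, so log2 fold changes moved unequally, from 3.21 to 3.68 for Itga2 and from 2.12 to 2.91 for Itga3. DESeq2 called 1606 genes higher. Without both S1 and S2, 709 genes were called lower and 19 genes of the other lists higher. With 1 library left out, 445 to 1699 genes were called higher, 700 to 1913 lower, 1 to 5 integrin subunits higher, and 11 to 30 genes of the other lists higher and 2 to 8 lower. The highest numbers of all genes came without S3 and the lowest without S6. These fits have fewer samples, and no further cause was tested. Over 18 alternatives each, the adjusted p ranged from 9.35e-13 to 0.0467 for Itga3, where all kept the call, and from 0.000161 to 0.987 for Itgb5, where 17 did. It ranged from 0.00410 to 0.108 for Itga1 (10 kept the call), 0.00220 to 0.0945 for Itga2 (11) and 0.00114 to 0.0885 for Itgav (12). Differences of the ratios moved by less than the replicate spread in each fit with 1 library left out. The alternative with transcript lengths was not run, since none were at hand, and it would leave the differences between groups unchanged by construction. No paired analysis was possible because the labels carry no number that ties a Sirt6-KD culture to a Sirt6-Ctrl culture. The series record speaks of controls for the cells of each of 4 rats, so the overlaps and missed thresholds of Itgb1, Itga6 and Itgb4 come from an unpaired comparison and were not tested within rats. Depth limits Itgb3 and Itgb4, which had at most 50 and 94 counts in a library.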
